A study of Mus musculus with 18 samples.

Results

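The 42 genes described here encode RNA polymerase I (Pol I), its initiation factors and the proteins that turn the ribosomal RNA precursor into ribosomal subunits. They were chosen by name, as members of this pathway, and all 42 were found among the 21859 protein-coding genes of the deposited gene table, of which 20157 had reads. By role, 10 belong to the Pol I machinery, 3 are box C/D proteins, 3 are H/ACA proteins, 5 are nucleolar phosphoproteins and chaperones, 11 are small subunit processing factors and 10 are large subunit processing factors.

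Nascent RNA was measured by TT-seq, in which RNA made during a pulse of 4-thiouridine (4sU), here 5 min, is purified and sequenced. The cells were E14 murine embryonic stem (ES) cells, feeder-free in serum with LIF and 2 kinase inhibitors, and every line carried an integrated osTIR1, the plant receptor that recruits degron-tagged proteins for degradation. Untagged cells had no degron, while in SPT16-AID clone 1 and SPT16-AID clone 2, both homozygous, the endogenous gene of the FACT subunit SPT16 carried a mini-AID degron and a V5 tag. Each of these 3 kinds of cells was treated for 24 h with EtOH (0.1%) or with the auxin 3-IAA (500 nM by the labels, although the methods of the study give micromolar amounts), with 3 libraries for each of the 6 conditions and 18 libraries in all. The values used here are the authors' mean normalized count of each gene over all 18 libraries, its level below. That mean spans control libraries and the 6 libraries of SPT16-AID cells treated with 3-IAA, so it holds no contrast between conditions and has no error or n of its own. The depth of each library is unknown here, and fewer cells and less RNA per cell cannot be told apart in these bulk samples.

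Ribosome production starts in the nucleolus, where Pol I, brought to the ribosomal DNA by the factors UBF, SL1 and RRN3, makes one long precursor RNA. Small nucleolar RNAs (snoRNAs) bound by box C/D proteins guide its 2′-O-methylation, and those bound by H/ACA proteins guide pseudouridylation, while large assemblies of processing factors fold, cut and export the small and the large subunit. The genes of these proteins are themselves transcribed by RNA polymerase II, which is what the levels report. Proliferating stem cells are known for high demand on this pathway, and several of its genes carry snoRNAs within them.

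Because both the antisense transcripts upstream of these genes and the snoRNAs within them figure in the results below, a few of those sequences are shown first. The promoters of Rrn3, Utp20 and Nop56 are those among the 5 members with the highest promoter-upstream transcripts (PROMPTs) that had a RefSeq entry and no annotated exon in the 250 bases before the start. They are written 5′ to 3′ on the strand of the gene from RefSeq on GRCm38.p6, and capitals mark matches to CACGTG (E-box), CCAAT or its complement ATTGG, and GGGCGG (GC box) or its complement CCGCCC.
Rrn3, chr16:13780449-13780698, plus strand: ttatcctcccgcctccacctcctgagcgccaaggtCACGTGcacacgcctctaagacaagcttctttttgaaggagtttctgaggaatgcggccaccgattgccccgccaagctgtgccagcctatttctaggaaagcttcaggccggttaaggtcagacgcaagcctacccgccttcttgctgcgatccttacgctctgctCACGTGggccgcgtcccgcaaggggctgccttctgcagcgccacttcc
Utp20, chr10:88826815-88827064, minus strand: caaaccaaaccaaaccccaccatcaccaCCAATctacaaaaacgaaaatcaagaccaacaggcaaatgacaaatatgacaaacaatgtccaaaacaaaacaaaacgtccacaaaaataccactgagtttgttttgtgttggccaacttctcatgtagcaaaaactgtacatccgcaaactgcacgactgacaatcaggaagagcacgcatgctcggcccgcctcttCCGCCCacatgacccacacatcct
Nop56, chr2:130274162-130274411, plus strand: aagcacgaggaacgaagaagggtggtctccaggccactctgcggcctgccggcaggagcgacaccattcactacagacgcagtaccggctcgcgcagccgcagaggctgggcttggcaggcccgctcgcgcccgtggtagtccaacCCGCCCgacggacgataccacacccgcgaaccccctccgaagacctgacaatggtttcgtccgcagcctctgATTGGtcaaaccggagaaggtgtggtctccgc

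The snoRNAs shown are 1 from each of 5 host genes, taken from the Gencode vM21 transcripts on GRCm38 and written 5′ to 3′. Capitals mark the letters of the C box (TGATGA) and the D box (CTGA), the paired elements that box C/D proteins bind.
Snord110 in Nop56, chr2:130275506-130275573, plus strand: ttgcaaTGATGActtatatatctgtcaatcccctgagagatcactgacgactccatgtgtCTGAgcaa
Snord11 in Nop58, chr1:59704790-59704873, plus strand: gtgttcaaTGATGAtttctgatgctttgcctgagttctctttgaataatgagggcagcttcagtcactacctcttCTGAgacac
Snord82 in Ncl, chr1:86356261-86356330, minus strand: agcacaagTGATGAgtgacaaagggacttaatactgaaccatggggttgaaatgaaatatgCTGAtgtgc
Snord92 in Wdr43, chr17:71631281-71631365, plus strand: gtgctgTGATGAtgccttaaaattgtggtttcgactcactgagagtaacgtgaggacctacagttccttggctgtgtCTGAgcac
Snord69 in Gnl3, chr14:31014287-31014366, minus strand: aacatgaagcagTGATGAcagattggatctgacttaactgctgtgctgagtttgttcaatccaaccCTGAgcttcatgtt

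All 42 genes were transcribed above the median gene. Their levels ran from 575 normalized counts for Npm3 to 46007 for Ncl, with a median of 4008, while the median of all genes with reads was 421 and the quartiles were 13.4 and 2900. By level, 27 members lay in the top 25 percent of genes with reads, 11 in the top 10 percent and 2 in the top 1 percent. Since the level grew with gene length (Spearman's rho 0.442 with exon length over 17664 genes with a level of at least 1, a description across genes that are not independent), levels are given below as values with their rank in the table, and per kb of exons or of gene span where genes are set against each other. Exon length here is the union of exons over all annotated transcripts of a gene. Orders within a complex can therefore change where coding length is used instead. Per kb of exons all 42 members were also above the median gene (120 per kb), with a median of 963 per kb, and 15 were in the top 10 percent. Per kb of gene span, introns included, all 42 were above the median of 21.7 per kb, and the median member exceeded 93.1% of genes. Against only the genes with a level of at least 1 the share of members above the median level was 90.5%, and against those of at least 10 it was 85.7%.

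The members made up 0.208% of the genes with reads and 0.570% of the summed level of all genes. Within the set, the sum was uneven, with 48.3% of it in Ncl, Npm1, Nop58, Taf1d and Wdr43. The highest level per kb of exons, that of Npm1, was 76.5 times the lowest, that of Taf1c.

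**Figure D1:**
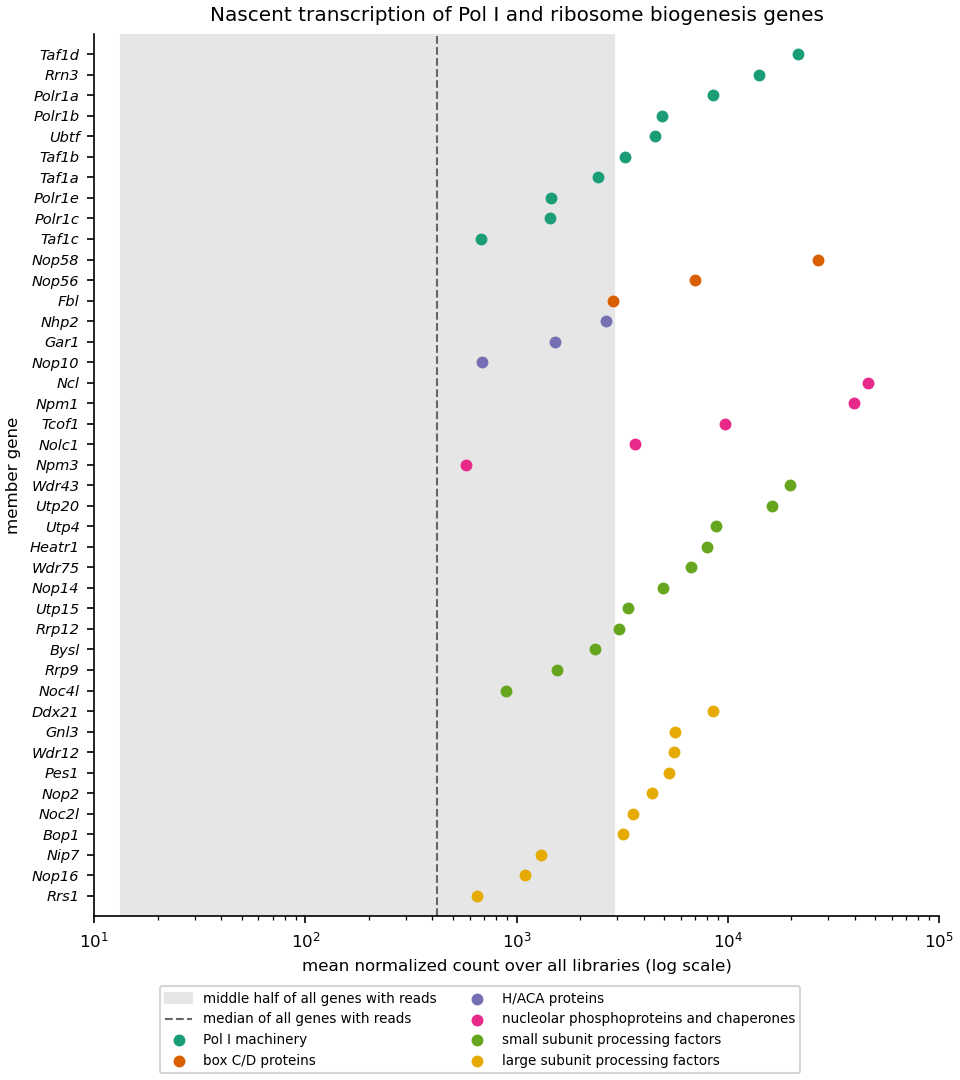
Level of each of the 42 genes, as the authors' mean normalized count over all 18 libraries, on a log axis, with genes grouped by role and the dashed line and grey band giving the median and the range between the quartiles of all genes with reads. Every member lies to the right of the median of 421, from Npm3 at 575 to Ncl at 46007.

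All 10 genes of the Pol I machinery were above the median gene, from 194 per kb of exons for Taf1c to 3251 for Rrn3. Polr1a encodes the largest subunit (chromosome 6, 71909053 to 71984935 of GRCm38) and had a level of 8535 normalized counts, above 90.5% of genes with reads. Polr1b, the second largest subunit, which forms the active site with it, had 4884 (82.8%). The assembly subunit Polr1c, which Pol I shares with Pol III, had 1440 (64.6%), and Polr1e, a subunit of the heterodimer that takes part in initiation and elongation, had 1460 (64.8%). Per kb of exons these 4 subunits lay between 375 for Polr1e and 841 for Polr1b, a ratio of 2.25. Per kb of gene span the order changed, with Polr1c highest at 348 and Polr1e still lowest at 81.2.

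Among the initiation factors, Rrn3 (chromosome 16, 13780708 to 13814839), whose product makes Pol I competent to start, had a level of 14036, above 95.5% of genes with reads. Ubtf, which encodes the HMG-box factor UBF that keeps ribosomal DNA open, had 4515 (81.6%). Of the SL1 subunits, which recognise the ribosomal promoter together with TBP, Taf1a had 2429 (72.4%), Taf1b had 3255 (76.7%), Taf1c had 676 (54.7%) and Taf1d had 21614 (98.3%). The SL1 subunits stood per kb of exons at 194 for Taf1c, 1008 for Taf1a, 1241 for Taf1b and 2415 for Taf1d, which hosts 8 snoRNAs. The order within SL1 depended on the length used, since Taf1b was lowest per kb of gene span, at 54.1, while Taf1d was highest on both scales. Taf1c overlapped the annotated pseudogene Rps13-ps4 on the same strand, so reads shared with it cannot be assigned with certainty.

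The 3 box C/D proteins had a median of 1715 per kb of exons and the 3 H/ACA proteins one of 890, with overlapping ranges. Nop58 (chromosome 1, 59684971 to 59719044), a core scaffold protein of the box C/D particle, had a level of 26882, above 98.98% of genes with reads, and Nop56, its partner on the particle, had 7031 (88.1%). Fbl, which encodes the methyltransferase fibrillarin, had 2879 (74.9%). The order per kb of exons was Fbl at 684, Nop56 at 1715 and Nop58 at 2499. Per kb of gene span Nop56 was above Nop58, at 1440 against 789, and Fbl remained lowest at 301.

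Of the H/ACA proteins, which form a core with the pseudouridine synthase dyskerin, Nhp2 had a level of 2666, above 73.7% of genes with reads, Gar1 had 1526 (65.5%) and Nop10 had 690 (55.0%). On the scale per kb of exons, Nhp2 stood at 2326, Gar1 at 890 and Nop10 at 622. The short Nop10 thus ranked above 74.5% of genes per kb of exons although it was near the middle by level. Per kb of gene span Gar1 was the lowest, at 235, and Nhp2 the highest, at 670.

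The nucleolar phosphoproteins and chaperones ran from 484 per kb of exons for Npm3 to 14813 for Npm1. Ncl (chromosome 1, 86344719 to 86359400), which encodes nucleolin, an RNA-binding protein of the dense nucleolus, had a level of 46007 and ranked 46 among all genes. Npm1 (chromosome 11, 33152287 to 33163206), which encodes the histone and ribosome chaperone nucleophosmin, had 39477 and ranked 72. Npm3, a relative of Npm1 without its RNA-binding tail, had 575, above 53.1% of genes with reads. Between Npm1 and Npm3 the ratio per kb of exons was 30.6, and per kb of gene span it was 11.7. Tcof1, which encodes treacle, a partner of Pol I and UBF, had 9677 (92.0%), and Nolc1, which encodes the snoRNP chaperone NOPP140, had 3630 (78.3%).

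The small subunit processing factors had a median level of 4932, and all 11 were above the median gene. The t-UTP proteins, which bind the nascent precursor first and are known to be needed for Pol I transcription, were Wdr43 with 19795 (97.8%), Utp4 with 8789 (90.9%), Heatr1 with 7986 (89.7%), Wdr75 with 6719 (87.4%) and Utp15 with 3385 (77.2%). Of these 5, Wdr43 was highest per kb of exons at 4146 and Utp15 lowest at 579, a ratio of 7.16. Per kb of gene span the ratio fell to 2.60, with Wdr43 at 459 and Heatr1 lowest at 176.

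Utp20, a very large scaffold protein of the small subunit processome whose gene has 62 separate exon blocks, had a level of 16130 (96.6%). Rrp9, a U3 snoRNP protein, had 1562 (65.8%), and Rrp12, an export factor of pre-ribosomes, had 3050 (75.7%). Nop14 and Noc4l encode partners in small subunit assembly and export, with levels of 4932 (82.9%) and 888 (58.0%), and Bysl, which encodes the late assembly factor bystin, had 2359 (72.0%). These 6 genes ran per kb of exons from 342 for Noc4l to 1807 for Nop14.

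The large subunit processing factors had a median level of 3975, and 1 of the 10, Ddx21, was in the top 10 percent of genes with reads. Ddx21, an RNA helicase that also acts with Pol I, had a level of 8492 (90.4%), and Gnl3, which encodes the GTPase nucleostemin known from stem cells, had 5600 (84.8%). The PeBoW complex, needed to process the spacer between 5.8S and 28S rRNA, comprises Pes1 with 5279 (83.8%), Wdr12 with 5584 (84.7%) and Bop1 with 3200 (76.4%). Per kb of exons Pes1 was highest, at 1746, and Wdr12 lowest, at 467, whereas per kb of gene span Bop1 was lowest, at 132. The exon union of Wdr12 held 11955 bases, against 1269 coding bases. With the highest level and the shortest coding length of the complex, Wdr12 would be highest per kb of coding length.

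Nop2, an rRNA cytosine methyltransferase, had 4385 (81.1%), and Noc2l, a large subunit export factor, had 3564 (78.0%). The assembly factors Nip7 and Nop16 had 1304 (63.3%) and 1096 (60.7%), and Rrs1, which helps to bring the 5S particle into the large subunit, had 651 (54.3%). Rrs1 is the only member annotated with 1 exon, so its levels per kb of exons and of gene span were the same, at 318, above 62.5% of genes on the first scale and 93.8% on the second.

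**Figure D2:**
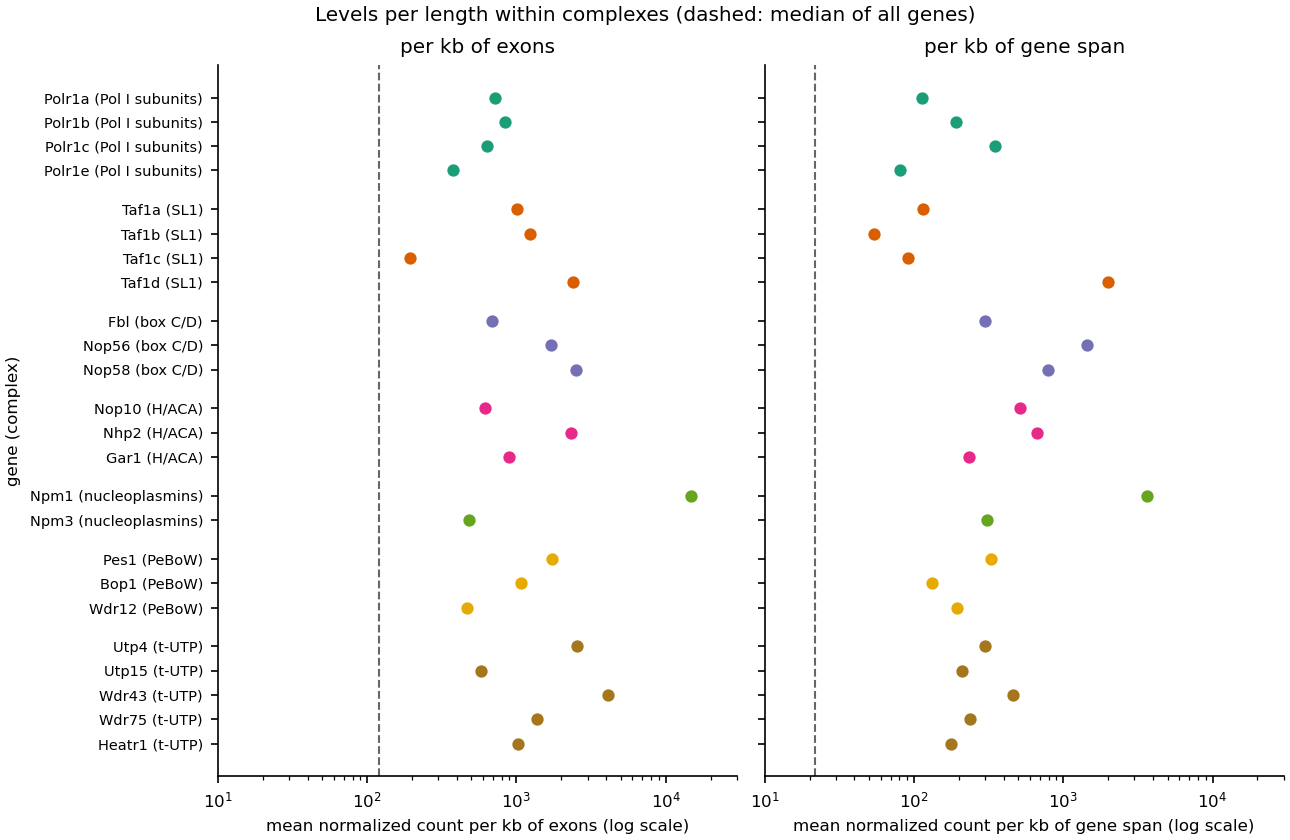
Levels within 7 complexes or families, as the authors' mean normalized count per kb of exons (left) and per kb of gene span (right), on log axes, with 1 point per gene and dashed lines at the medians of all genes (120 and 21.7 per kb). Npm1 is highest on both scales, and orders within a complex differ between the scales, as for Taf1b, Nop56 and Polr1c.

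For 7 members the genome held similar copies elsewhere, which matter because the authors kept only reads that align to 1 place. With a copy taken as a locus on an assembled chromosome that matches at least 50% of the longest coding transcript at 90% identity or more, Npm1 had 6, Rrs1 had 3, Pes1 had 2, and Fbl, Nhp2, Npm3 and Taf1d had 1 each. The levels of these 7 genes are therefore uncertain. Reads that differ from a copy can still align to 1 place, and how many reads were lost, if any, was not tested. For some members the longest transcript far exceeded the coding length, at 8202 against 2121 bases for Ncl and 9507 against 1608 for Nop58. A copy of the coding part alone could not reach 50% there. Members without a copy by this rule may therefore still have one.

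Of the 42 genes, 6 contain annotated snoRNAs on their own strand, or 14.3%, against 1.32% of all genes with reads and 2.33% of genes with a level at or above that of Npm3. They are Taf1d with 8, Nop56 with 5, Nop58 with 4, and Ncl, Wdr43 and Gnl3 with 3 each, 26 snoRNAs in all. Hosts occur in every role but the H/ACA proteins, and among them are both scaffold proteins of the particle that box C/D snoRNAs form.

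The median host member exceeded 98.1% of genes with reads by level and 95.5% per kb of exons, against 77.0% and 80.7% for the other 36 members. Over all 265 genes with reads that host a snoRNA, the median percentiles were 86.8 by level and 85.9 per kb of exons. Of the 26 snoRNAs 18 overlapped an exon of at least 1 annotated transcript of the host, among them all 8 in Taf1d, all 3 in Gnl3 and none of those in Wdr43. How many reads of the snoRNAs entered the level of the host was not tested. By their names 9 of the 26 are Snord and 1 is Snora, and 10 hold both TGATGA near the 5′ end and CTGA near the 3′ end.

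PROMPTs are short antisense transcripts made upstream of a promoter, and the authors counted them within 1 kb of annotated starts and away from other coding transcripts. Of the 42 members 25 had a PROMPT entry, or 59.5%, against 82.5% of genes with reads. The 17 without one were Polr1a, Fbl, Ncl, Npm3, Wdr43, Utp4, Rrp9, Nop14, Noc4l, Bysl, Nop16, Bop1, Pes1, Wdr12, Nip7, Gnl3 and Ddx21. In 13 of these 17 a coding transcript of another gene lay within 1000 bases upstream, while Fbl, Ncl, Wdr43 and Ddx21 had none there.

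Several members start close to a gene that runs the other way. A coding start on the opposite strand within 1000 bases upstream was found for 12 members, or 28.6%, against 9.21% of genes with reads and 14.3% of genes with a level at or above that of Npm3. The closest pair was Gnl3 and Pbrm1, 5 bases apart, followed by Polr1c and Yipf3 at 26 bases, Utp15 and Ankra2 at 33, Noc4l and Ddx51 at 34, and Utp4 and Chtf8 at 35. Taf1d and 4931406C07Rik were 47 bases apart, Bysl and Med20 90, Nop16 and Higd2a 117, Bop1 and Hsf1 158, Nip7 and Cog8 188, Nop14 and Grk4 231, and Polr1a and Ptcd3 303. Ddx51 is itself a large subunit processing factor. For Polr1c, Utp15 and Taf1d the PROMPT entry and the neighbouring coding transcript lie on the same strand, so reads of both cannot be told apart with certainty.

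The PROMPTs of the 25 members ranked high in their table. Their median level was 14.3 normalized counts, above 87.4% of PROMPTs with reads, while the median of all PROMPTs with reads was 0.815. Among PROMPTs with reads of all genes with reads the median percentile was 58.5, and among those of genes with a level at or above that of Npm3 it was 70.1. All 25 were above the median PROMPT with reads. Against PROMPTs with a level of at least 1 that share was 72.0%, and against those of at least 10 it was 32.0%, so the result holds relative to a table in which most PROMPTs had very few reads.

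Of the 25, 10 were in the top 10 percent of PROMPTs with reads, or 40%, against 18.1% of PROMPTs of genes with a level at or above that of Npm3. The highest was that of Rrn3, at 199 normalized counts (above 99.6% of PROMPTs with reads), followed by Rrs1 at 132 (99.3%) and Utp20 at 121 (99.1%). Next came Polr1c at 104 (98.8%) and Nop56 at 88.1 (98.4%). The other 5 were Npm1 at 36.7 (94.9%), Ubtf at 32.6 (94.1%), Taf1d at 25.7 (92.5%), Nhp2 at 23.8 (92.0%) and Nolc1 at 21.7 (91.3%). Among the 10, the values of Polr1c and Taf1d may include reads of the neighbouring coding transcript on the same strand.

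PROMPT and gene did not rank alike in every member. The gene and PROMPT tables were normalized separately, so they are set side by side only as ranks within their own table. The PROMPT ranked higher than the gene in 16 members and lower in 9, with Nop10 nearly equal on both. The same count was not made over other genes. Since PROMPTs of all genes with reads had a median percentile of 58.5, the 2 scales are not alike. Whether the 16 are particular to the members was not tested. For Rrs1 the gene exceeded 54.3% of genes and its PROMPT 99.3% of PROMPTs, and for Polr1c the values were 64.6% and 98.8%. The opposite was seen for Heatr1, with 89.7% for the gene and 60.5% for the PROMPT, and for Utp15, with 77.2% and 54.6%. The PROMPT values of Polr1c and Utp15 may include reads of the neighbouring Yipf3 and Ankra2, so these examples are uncertain. Across the 25 members Spearman's rho between gene and PROMPT level was 0.328, and across the genes with a level at or above that of Npm3 it was 0.0844. The points share the same libraries, and these values are given as descriptions.

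**Figure D3:**
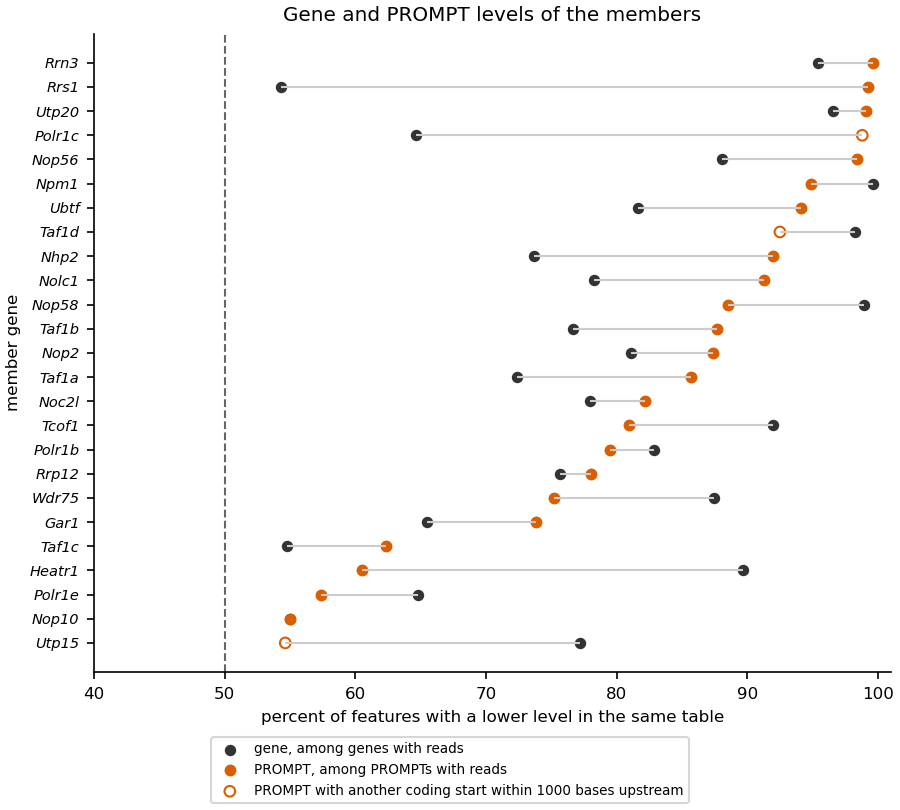
Gene level and PROMPT level of the 25 members with a PROMPT entry, each as the percent of features with a lower level in its own table (the axis starts at 40), joined by a line per gene, with open circles for the 3 PROMPTs that have another coding start within 1000 bases upstream. The PROMPT of Rrs1 lies at 99.3% and its gene at 54.3%, while for Heatr1 the order is turned.

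A promoter was read from 250 bases before to 50 bases after the most upstream RefSeq start of its gene. Other starts of the gene were not searched. Promoters were found for 36 of the 42 members. Those of Tcof1, Fbl, Bop1, Rrp12, Rrs1 and Npm1 were not used here. Each motif was searched on both strands, none of the 7 motifs lies within another, and the shares stand beside those of 15629 genes with reads and of 7644 genes with a level at or above that of Npm3. A match is a stretch of letters and not a bound site.

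The core of ETS-family sites, CCGGAA, was present in 19 of the 36 promoters, or 52.8%, against 31.0% of genes with a level at or above that of Npm3 and 20.5% of all. The 19 include Polr1c, Polr1e, Rrn3, Taf1a, Taf1b and Taf1c of the Pol I machinery and Gar1 and Nhp2 of the H/ACA proteins. The E-box CACGTG, the site of MYC-family and related factors, was present in 6, or 16.7%, against 11.0% and 8.44%. These were Rrn3, Utp20, Utp4, Wdr43, Nop2 and Pes1. Counting from the start as 0, their E-boxes began at -215 and -48 for Rrn3, -60 for Nop2, 2 for Pes1, 15 for Utp4, 17 for Wdr43 and 37 for Utp20. Rrn3 was thus the only member with more than 1, and both are among the capitals of its promoter above.

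The 6 members with an E-box had a median percentile of 93.9 per kb of exons and 93.2 by level, against 80.7 and 77.6 for the other 30 members with a promoter. This split rests on 6 genes and was not made over all genes, so whether it is particular to the members was not tested. The GC box GGGCGG was present in 27 promoters, or 75%, against 68.4% and 50.4%. The YY1 core ATGGCGG was present in 6, or 16.7%, against 9.51% and 5.83%, namely Nip7, Nop16, Npm3, Utp20, Utp4 and Wdr75. CCAAT was present in 12, or 33.3%, against 39.8% and 38.9%, and the NRF1 core TGCGCA in 5, or 13.9%, against 16.0% and 10.8%. TATAAA was found only in the promoter of Pes1, or 2.78%, against 6.23% and 11.7%. The median GC content was 59.2%, against 62.0% and 57.7%.

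**Figure D4:**
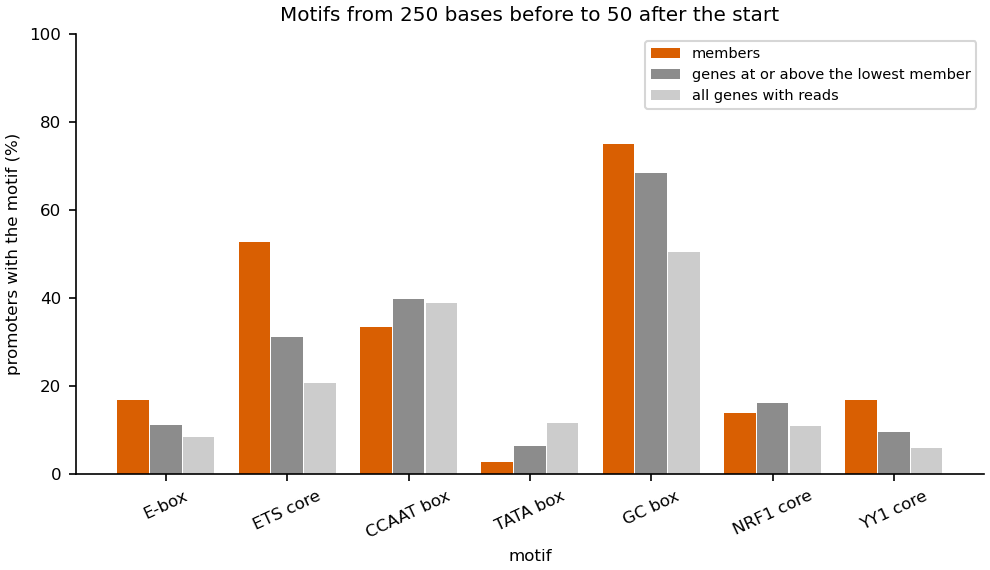
Percent of promoters, from 250 bases before to 50 bases after the start, that hold each of 7 motifs on either strand, for 36 members, for 7644 genes with a level at or above that of the lowest member and for 15629 genes with reads. The ETS core shows the widest gap, with 52.8% of members against 31.0% and 20.5%.

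A list of 85 further genes of the pathway was found in full, 1 of them under an older symbol, and all 85 were above the median gene by level, with a median percentile of 77.8, against 79.7 for the members. The median percentiles per kb of exons were 81.7 and 82.6. By level 7 of the 85 were in the top 10 percent of genes, or 8.24%, against 11 of the 42 members, or 26.2%. For the Pol I machinery the median percentile by level was 62.5 for the other genes and 79.2 for the members, and per kb of exons it was 77.5 and 78.7. In the Pol I machinery the list ran from 483 normalized counts for Polr2k, a small subunit shared by the 3 polymerases, to 7699 for Polr1d, the partner of Polr1c. Per kb of exons Polr1d stood at 2530, above each of the 4 Pol I subunits among the members. Among the other box C/D and H/ACA factors, Snu13, which binds the snoRNA itself, was lowest at 2840 and the assembly factor Shq1 highest at 9537. The other small subunit factors ran from 432 for Imp3, a U3 snoRNP protein, to 14688 for Nol10, and the other large subunit factors from 1111 for Nle1 to 23451 for the giant ATPase Mdn1. A head-to-head start was found for 23 of the 85, or 27.1%, near the share of the members, while 4 hosted a snoRNA, or 4.71%. Of the 85, 54 had a PROMPT entry, or 63.5%, with a median percentile of 82.9, and 17 of these were in the top 10 percent.

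The cell type was checked against marker genes in the same table. The lowest of 8 pluripotency markers was Sox2 at 5985, which exceeded 85.8% of genes with reads. Of 17 markers of fibroblasts, blood cells, neurons, hepatocytes and muscle, none was above the median gene, 12 were below 10, and the highest was Syt1 at 115.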

How the data were processed

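The 18 TT-seq libraries were grouped by their labels into 6 conditions. After trimming (Trim Galore) and alignment to mm10 (STAR, unique alignments only), the authors obtained stranded counts from featureCounts on Gencode vM25, although the submitters' processing notes name HTSeq, and divided them by DESeq2 size factors. Whether reads in introns were counted is not given in the sources used here. The value used is the deposited baseMean, a signal that the authors averaged over all libraries, from 2 tables (protein-coding genes and PROMPTs) normalized separately. The other 4 value columns of each table hold the authors' comparison of SPT16-depleted with control libraries (log2 fold change, standard error, p-value and adjusted p-value) and were not used. No values per library were used here, so no groups were compared, no test was run and no spread can be given. The 2 tables of distal regions carry no gene and were not used here.

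A percentile is the percent of features with reads that have a lower level. Exon unions, gene spans, snoRNAs and neighbouring starts came from Gencode vM21 on GRCm38, which held 20140 of the 20157 genes with reads by Ensembl ID. PROMPTs were joined by symbol. Copies were sought with minimap2 2.31. Promoters came from RefSeq on GRCm38.p6, and motifs were matched exactly. All members' levels are given, with levels per kb within named complexes, PROMPTs in the top 10 percent, and the highest and lowest gene of each other pathway list. The members and lists were chosen with earlier results of these data known. Genes at or above the level of the lowest member were set beside the members after the data were seen. Computation used pandas 2.3.3, scipy 1.17.1 and numpy 2.4.6 under Python 3.11.15, and figures matplotlib 3.10.9. The percentile, length and motif functions were tested on simulated data. Alternatives were other minimum levels, all genes of the table, other lengths, a shorter promoter window and the gene's strand only. Protein sequences were not used here.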

Additional observations from a re-analysis of the deposited data

How the results depend on the processing

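Of 51 alternatives computed, 42 gave a share within the 95% exact binomial interval of the reported one and 9 lay outside it. These intervals treat members as independent draws, which genes chosen by name are not. They describe no spread between libraries. Some alternatives could hardly fall outside, since for the lists of 3 genes the interval ran from 29.2% to 100%. Taking all genes of the table could only lower the median gene, so it could not reduce a share. The share of members above the median level was 100% over genes with reads, 90.5% over genes with a level of at least 1 and 85.7% over those of at least 10. The share of members' PROMPTs above the median PROMPT was 100%, and over PROMPTs of at least 1 and 10 it was 72.0% and 32.0%. With promoters read from 100 bases before the start, the shares of members fell for CCAAT (33.3% to 16.7%), TATAAA (2.78% to 0%), the GC box (75% to 52.8%) and the YY1 core (16.7% to 5.56%). Those of the ETS core (52.8% to 50%) and the NRF1 core (13.9% to 11.1%) stayed within the interval. A shorter window holds fewer letters, and whether that accounts for the falls was not tested. With the strand of the gene only, the GC box share was 44.4%, outside the interval. On that strand the ETS core share was 41.7%, that of CCAAT 19.4% and that of the YY1 core 8.33%, each within its interval. The E-box share stayed at 16.7% in the shorter window, in which 5.16% of all promoters held one. Among promoters of genes with a level at or above that of Npm3 it was 6.93%. For the other motifs, the ETS core included, no share over other promoters is given for the shorter window. Their contrast with other genes in that window is therefore not known here. CACGTG and TGCGCA read the same on both strands, so searching the strand of the gene only could not change their shares. Coding length from Gencode stood in for protein length times 3, and 97.6% of members were above the median per kb of coding length.

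No paired analysis was possible because the tables used hold 1 mean over all libraries for each gene, and for the same reason no library was left out and the depth per library is unknown. The mean weights control and SPT16-depleted libraries together, so a level here is that of neither state. Low PROMPT levels rest on few reads.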
